A study of Mus musculus with 80 samples.

Results

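The peaks described here lie in or near the genes of odorant and pheromone receptors. They are the peaks of 40 deposited lists that overlapped, by at least 1 bp, the body of a protein-coding gene whose symbol starts with Olfr, Vmn1r or Vmn2r, extended by 5 kb either side (mm10). 1902 of 710560 peaks met this rule, around 1461 placed receptor genes (1109 Olfr, 229 Vmn1r and 123 Vmn2r). By mark, 1203 were H3K9me3, 232 H3K27me3, 231 H3K27ac, 136 H3K4me3 and 100 H3K18la peaks. Of the 1461 genes, 540 had a peak of any mark at any stage and 921 had none. Just inside the bound, 169 H3K9me3 peaks lay 4 to 5 kb from the nearest receptor gene (median fold enrichment 4.03) and just outside it 221 lay at 5 to 6 kb (4.18); for H3K4me3 these were 21 and 66 peaks and for H3K27ac 43 and 70.

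The study followed mouse embryonic fibroblasts (MEFs) as they were reprogrammed by chemical media to induced pluripotent stem cells (iPSCs), profiling histone marks by CUT&Tag, in which a transposase tethered to an antibody cuts the DNA near a mark. There are 80 libraries (5 marks, 8 stages, 2 libraries per mark and stage), and 1 peak list was deposited per mark and stage. All cells carry the strain label 129XOG2 E13.5 embryo. D0 is MEFs of passages 1 to 3 in serum medium, D2, D4, D6, D8, D10 and D12 are cells after that many days in reprogramming medium, and iPSC is the resulting line (riPSCs), maintained on an unspecified feeder layer in medium with N2, B27, LIF, CHIR99021 and PD0325901. A listed peak in a mixed culture cannot tell a mark in many cells from a stronger mark in fewer cells.

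Olfr genes encode the odorant receptors of the nose, and Vmn1r and Vmn2r genes the receptors of the vomeronasal organ, which senses pheromones. They stand in tandem clusters on most chromosomes, and a mature sensory neuron uses a single allele of a single receptor gene while the others stay silent. In olfactory neurons the silent clusters are known to carry H3K9me3, a mark of constitutive heterochromatin. H3K27me3 is the Polycomb mark of facultative repression, H3K4me3 marks promoters, H3K27ac active promoters and enhancers, and H3K18la is a lactylation of the same histone tail. Neither fibroblasts nor pluripotent cells are known for receptor expression.

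Promoter sequences show how unlike the usual gene start these receptor genes are. RefSeq promoters (GRCm38.p6, 250 bases before to 50 after the annotated start) were matched for 1267 receptor genes, and they held a median of 1 CpG dinucleotide and 35.7% G and C. The 17492 protein-coding genes with such a sequence held a median of 13 CpGs and 56.3% G and C. Only 26 receptor promoters lay under a peak of any mark at any stage, with a median of 3 CpGs and 48.3% G and C. The named genes among the 26 are printed 5′ to 3′ with each CpG in capitals. Vmn2r29 (chr7:7278240-7278539, minus strand), next to the chloride/proton exchanger gene Clcn4, had 23 CpGs and lay under a peak in 32 lists. Olfr95 (chr17:37211802-37212101, minus strand) lay under 12 lists, Olfr222 (chr11:59571689-59571988, minus strand) under 7, Olfr94 (chr17:37197917-37198216, minus strand) under 4 and Olfr982 (chr9:40074047-40074346, plus strand) under 1.
Vmn2r29: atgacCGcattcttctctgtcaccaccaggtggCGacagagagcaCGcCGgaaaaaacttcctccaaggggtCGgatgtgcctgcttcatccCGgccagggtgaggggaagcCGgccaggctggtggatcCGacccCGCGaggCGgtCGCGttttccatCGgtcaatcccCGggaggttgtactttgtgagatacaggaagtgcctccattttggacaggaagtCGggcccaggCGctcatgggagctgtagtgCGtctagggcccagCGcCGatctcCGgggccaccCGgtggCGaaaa
Olfr95: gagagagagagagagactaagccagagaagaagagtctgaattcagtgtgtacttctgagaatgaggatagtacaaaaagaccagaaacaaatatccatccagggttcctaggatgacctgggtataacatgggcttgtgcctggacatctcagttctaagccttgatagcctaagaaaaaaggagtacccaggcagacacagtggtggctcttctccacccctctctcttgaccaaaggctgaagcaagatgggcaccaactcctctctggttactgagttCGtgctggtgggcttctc
Olfr222: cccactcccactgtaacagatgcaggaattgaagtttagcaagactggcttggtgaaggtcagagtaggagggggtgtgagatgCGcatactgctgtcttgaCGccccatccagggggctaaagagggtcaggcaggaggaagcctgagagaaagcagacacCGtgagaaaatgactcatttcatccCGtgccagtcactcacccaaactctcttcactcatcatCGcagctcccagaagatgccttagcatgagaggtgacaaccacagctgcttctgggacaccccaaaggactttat
Olfr94: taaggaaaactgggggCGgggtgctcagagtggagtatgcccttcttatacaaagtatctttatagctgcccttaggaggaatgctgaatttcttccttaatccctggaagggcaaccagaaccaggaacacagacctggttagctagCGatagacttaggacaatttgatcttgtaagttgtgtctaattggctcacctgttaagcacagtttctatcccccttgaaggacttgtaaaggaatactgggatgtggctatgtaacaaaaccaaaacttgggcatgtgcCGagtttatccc
Olfr982: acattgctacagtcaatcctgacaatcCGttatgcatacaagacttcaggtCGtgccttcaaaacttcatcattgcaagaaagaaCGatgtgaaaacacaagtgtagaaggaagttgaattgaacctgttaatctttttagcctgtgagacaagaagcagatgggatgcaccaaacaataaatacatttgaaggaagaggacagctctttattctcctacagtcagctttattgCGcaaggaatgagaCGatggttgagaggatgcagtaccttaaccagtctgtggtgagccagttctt

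The sequences show the contrast: CpGs are dense along the Vmn2r29 promoter, while Olfr95 has 1 and Olfr94 has 3. Among receptor promoters TATAAA was present on either strand in 39.6%, against 13.3% of all promoters. The homeodomain motifs of the type bound by LHX2, a regulator of receptor choice, were TAATTG in 20.7% against 7.04%, TAATGA in 26.6% against 8.65% and TAATTA in 16.7% against 4.68%. The motifs of the type bound by EBF factors were CCCNNGGG in 4.10% against 15.3%, and the longer palindromic EBF consensus, which contains it, in 0.395% against 0.943%. The families were not alike in CCCNNGGG, which was in 18.8% of Vmn2r promoters (22 of 117), above the share of all promoters, but in 3.07% of Olfr and 0.485% of Vmn1r promoters. Of the 1148 receptor genes under 1.5 kb, 88.2% had a length that is a multiple of 3, so many gene models are coding regions alone and the annotated start is often not the start of transcription. Receptor promoters were also poorer in G and C, with a median of 35.7% against 56.3% of all promoters. The part of base composition in the motif shares was not tested, so they are not read as an excess or lack of binding sites. The matches are letters in a window and were not tied to binding.

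The lists held 7009 to 37784 peaks, with a most common background of 1.31 to 4.06 fragments per position. The median receptor peak of the H3K9me3 lists had a pileup of 19 to 25 fragments, and that of the H3K27ac lists 23 to 33. The labels were checked against marker genes. Of 8 fibroblast markers, 8 had an H3K27ac peak at D0, 4 at D12 and 0 in iPSC, and 8, 6 and 6 had an H3K4me3 peak. Of 8 pluripotency markers, 4, 8 and 8 had an H3K4me3 peak at D0, D12 and iPSC, and 4, 7 and 7 an H3K27ac peak. Of 8 markers of olfactory and vomeronasal neurons, 5 had an H3K27ac peak at D0, 6 at D12 and 4 in iPSC, and these include broadly used genes such as Ncam1 and Gap43. The other cell types the cultures could hold had H3K27ac at D0, D12 and iPSC on 2, 1 and 2 of 4 macrophage markers, 3, 2 and 0 of 4 endothelial markers and 3, 1 and 1 of 4 neuronal markers. The part of these cells in the receptor peaks was not tested. Each mark has 1 list per stage, so differences between stages have no replicate check, and intervals (exact Clopper-Pearson for genes, Wilson for peaks, at 95%) cover counting error only.

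H3K9me3 was listed for more receptor genes than any other mark at every stage. It was listed in the windows of 161 of 1461 genes at D0 (11.0%, interval 9.46 to 12.7%), where 15.5% of all 21779 protein-coding genes had it. The counts from D2 to D12 were 173, 247, 117, 81, 93 and 80 genes, and 144 in iPSC, against 13.8, 18.7, 8.77, 6.8, 9.82, 7.3 and 13.6% of all genes. The receptor counts were highest at D4 and lowest at D8 and D12, as were those of all genes. The lists themselves ran from 7591 peaks at D8 to 25050 at D4. The share of H3K9me3 peaks that lay in receptor windows stayed between 0.831% (D10) and 1.16% (D2), beside the 0.739% of the assembled span that the windows cover. Receptor windows held 1.98 to 2.67 times as many H3K9me3 peaks per Mb as windows of other protein-coding genes, and 0.842 to 1.22 times as many as the sequence outside all gene windows.

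**Figure D1:**
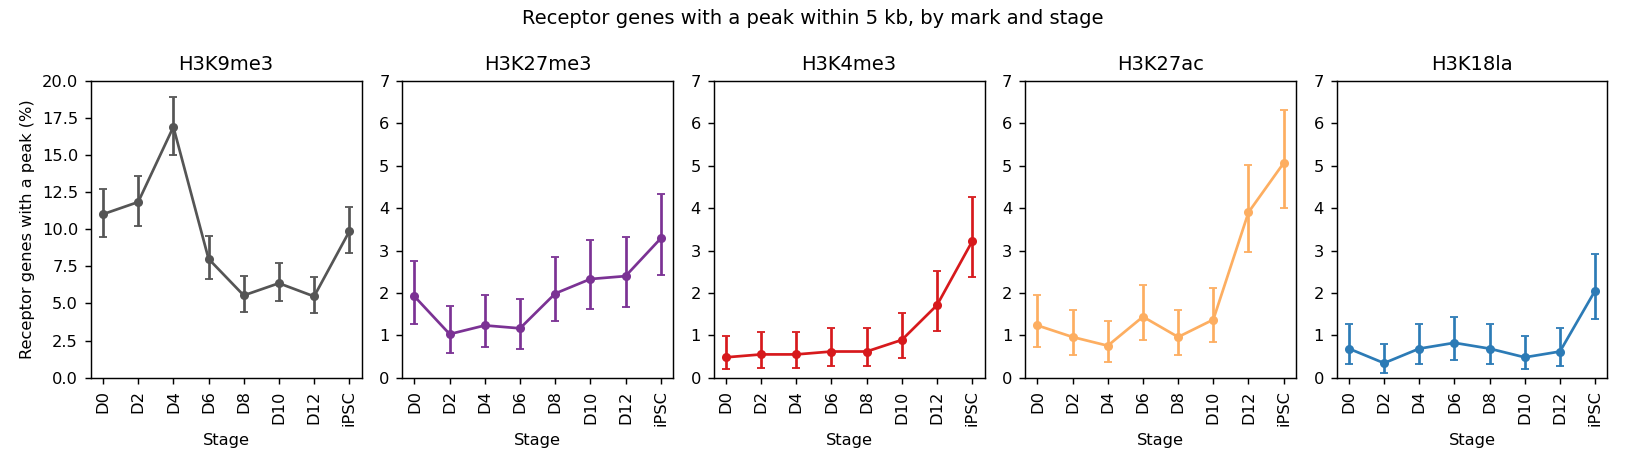
Share of the 1461 receptor genes with a peak in the window of 5 kb either side, by stage, with 1 panel per mark and exact 95% intervals as bars. The H3K9me3 panel has its own scale; its share is highest at D4 (247 genes), while the H3K4me3 and H3K27ac shares are highest in iPSC (47 and 74 genes).

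Gains and losses of H3K9me3 between the ends of the course nearly balanced. A peak was present in iPSC and not D0 for 80 receptor genes (5.48%, against 6.13% of all genes) and in D0 and not iPSC for 97 (6.64%, against 8.0%), with 64 genes in both lists. These shares, and those of the other marks below, are over all genes of a set, with or without a peak at D0. The net change was -17 genes. Its direction depended on the setting: it was 19 with peaks of a -log10 q of at least 5, and 17 with windows of 10 kb. From D12 to iPSC, 36 of the 80 genes kept a peak and 108 gained it, while the whole list went from 8657 to 19357 peaks. This turnover was not counted over all genes. The share against day from D0 to D12 gave a Pearson r of -0.54 (7 lists, two-sided exact permutation p = 0.208, adjusted p = 0.208).

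H3K9me3 was listed for a larger share of Vmn2r genes than of the other families. At any stage 95 of 123 Vmn2r genes had a peak (77.2%, interval 68.8 to 84.3%), beside 278 of 1109 Olfr (25.1%) and 51 of 229 Vmn1r genes (22.3%), where 29.5% of all protein-coding genes had one. Vmn2r genes, which carry introns and a large extracellular domain, are long, with a median of 24544 bp against 951 bp for Olfr and 924 bp for Vmn1r, so their windows are larger. Among Olfr genes, those of 1.5 kb or more also had a peak more often (63 of 164, 38.4%) than shorter ones (215 of 945, 22.8%). The part of length in the family difference was not tested.

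H3K9me3 peaks stood mostly beside the genes rather than on their edges. Around the 945 Olfr genes under 1.5 kb, the 8 lists together had 66.8 summits per Mb inside the gene, 4.23 within 1 kb of it, 39.2 at 1 to 2 kb, 69.1 at 2 to 3 kb, 83.1 at 3 to 4 kb and 62.6 at 4 to 5 kb. The 203 short Vmn1r genes had 5.24 per Mb inside the gene, 4.93 within 1 kb and 113 at 3 to 4 kb. The nearest 1 kb of flank was thus the emptiest band for short Olfr genes, with 8 summits. For short Vmn1r genes it cannot be ranked against the gene itself, as there were 2 summits within 1 kb and 1 inside. The 61 summits inside short Olfr genes lay in 44 genes, 30 of them at 1 stage, and Olfr398 was the only gene with such a summit at 4 or more stages. Within the cluster spans, sequence outside all gene windows had more H3K9me3 peaks per Mb than the receptor windows at every stage, with 15.4 against 9.06 at D0 and 23.3 against 8.85 in iPSC.

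**Figure D2:**
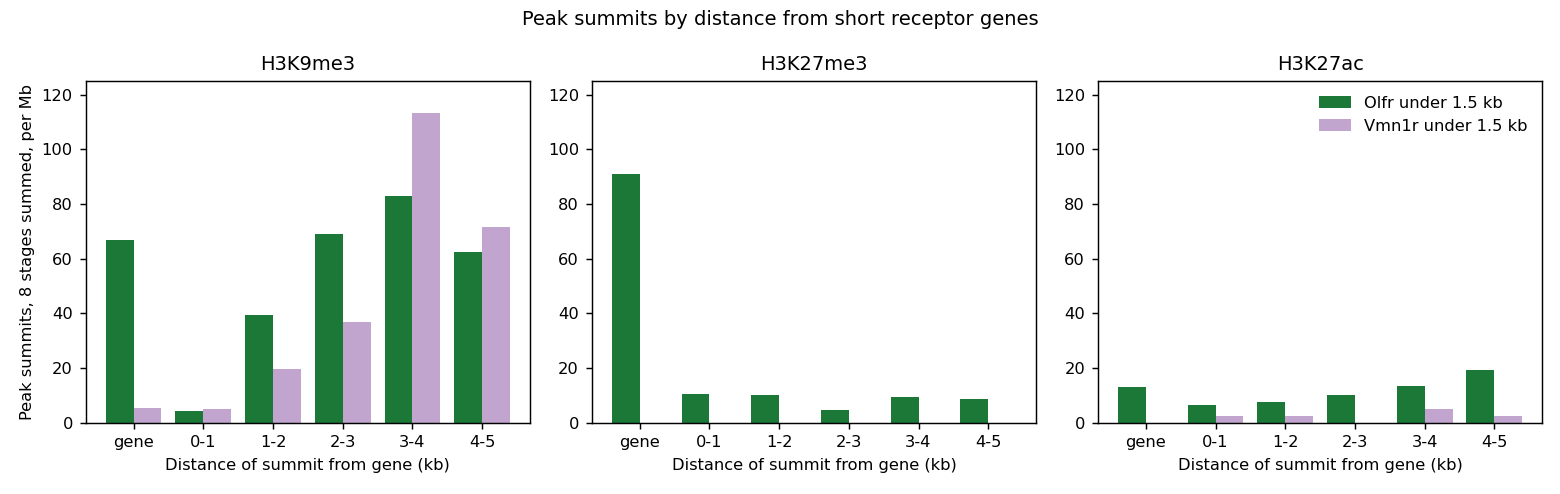
Peak summits per Mb, summed over the 8 stages, inside Olfr (green) and Vmn1r (light purple) genes under 1.5 kb and in 1 kb bands beside them, for 3 marks. H3K27me3 in Olfr genes stands at 90.9 per Mb inside the gene and at most 10.6 in any band beside it, while H3K9me3 of Olfr genes is lowest within 1 kb.

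Most H3K9me3 regions in receptor windows were listed at 1 stage. Merging overlapping peaks of the 8 stages gave 574 H3K9me3 regions, of which 333 (58.0%) were listed at 1 stage and 20 (3.48%) at all 8. Of the 333, 102 were listed at D4 alone, the stage with the longest H3K9me3 list (25050 peaks). The same share was not counted over regions outside receptor windows. One region listed at all stages lay over the annotated start of Vmn2r29, beside Clcn4 (chr7:7277419-7278546). From D0 to D12 its fold enrichment (a peak's pileup over its local background, as the authors deposited it) was 19.1, 17.8, 20.7, 19.4, 18.8, 18.7 and 18.8, and in iPSC it was 17.99. Olfr631, a class I receptor, had peaks at all 8 stages, as did Vmn1r2 and Vmn1r30. The local background at Vmn1r2 was 10.8 times that of its lists, and the part of this in its peaks was not tested. Olfr624 had H3K9me3 at all 7 stages to D12 and not in iPSC, Vmn2r48 at D0, D2, D4, D6 and D12, and Olfr1223 at D0 and D4. Olfr145 (fold enrichment 9.48) and Olfr936 (9.19) had it in iPSC alone, and Olfr1314 (9.88 in iPSC) also at D2, D4, D6 and D8. Away from other genes, an H3K9me3 peak lay between Vmn2r24 and Vmn2r25 in iPSC (chr6:123818176-123819177, fold enrichment 9.90), in a region also listed at 3.34 in D0 and at each stage to D10, but not at D12.

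**Figure D3:**
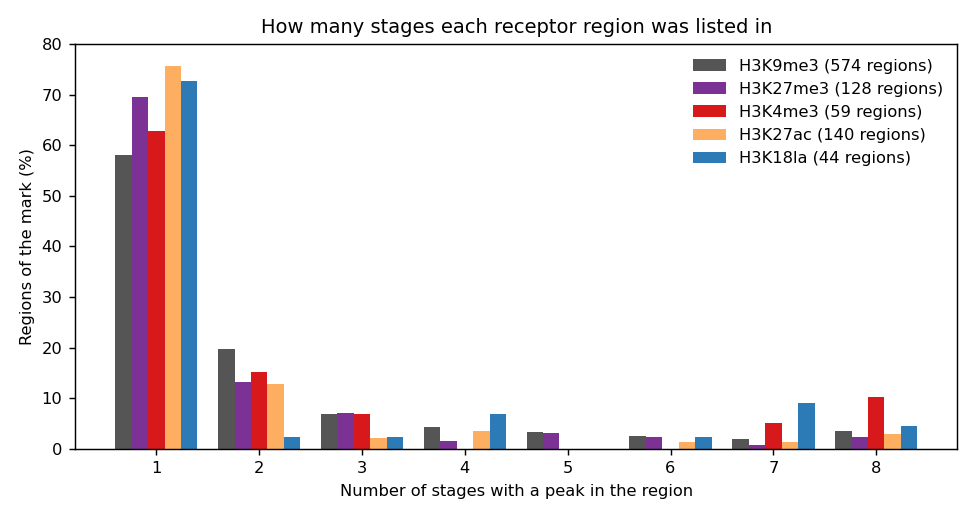
Percentage of the receptor regions of each mark (overlapping peaks of the 8 stages merged) by the number of stages at which a peak was listed. Most regions of each mark were listed at 1 stage, from 58.0% for H3K9me3 to 75.7% for H3K27ac; 20 H3K9me3 regions were listed at all 8.

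H3K27me3 was scarce in receptor windows, where 126 of its 232 peaks (54.3%) overlapped a receptor gene body and 106 lay in the flanks alone. It was listed for 28 genes at D0 (1.92%), against 33.0% of all genes, and for 48 in iPSC (3.29%), against 32.4%. Between them the counts were 15, 18, 17, 29, 34 and 35 genes from D2 to D12, against 25.7, 28.3, 18.6, 26.8, 30.9 and 23.3% of all genes. A peak was present in iPSC and not D0 for 38 genes (2.60%, all genes 10.1%) and in D0 and not iPSC for 18 (1.23%, all genes 10.8%), with 10 in both. As 1.92% of receptor genes and 33.0% of all genes had a peak to lose at D0, these are not loss rates. The share of H3K27me3 peaks in receptor windows was 0.171% at D0 and 0.311% at D12, and correlated with day over 7 lists (Pearson r = 0.81, exact permutation p = 0.0298, adjusted p = 0.0496). Spearman's rho was 0.79 with an adjusted exact p of 0.0800, and without D0 and D12 r was 0.79 (exact p = 0.15), so the relation did not pass by rank or over the middle days.

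In short Olfr genes H3K27me3 had 90.9 summits per Mb inside the gene and 4.82 to 10.6 in the bands beside it. Those 83 summits fell in 36 genes, 7 of which (Olfr94, Olfr95, Olfr222, Olfr455, Olfr551, Olfr12 and Olfr90) had one at 4 or more stages. No Vmn1r gene had an H3K27me3 peak at any stage, 0 of 229, which allows a share of up to 1.31% by a floor of 3 counts and 1.60% by the exact interval. Among Vmn2r genes 13 of 123 had one, and among all protein-coding genes 54.1% had one at some stage. Olfr95, in the receptor cluster beside the major histocompatibility complex, was listed at every stage, with fold enrichments of 5.53, 5.38, 5.33, 4.57, 3.41, 5.92 and 5.04 in the lists from D0 to D12 and 7.45 in iPSC. Its neighbour Olfr94, whose peaks also lie in the window of the ubiquitin-like gene Ubd, and Olfr222 on chr11 were likewise listed at all 8 stages, and Olfr750 at 7. Of the promoters printed above, that of Olfr95 lay under an H3K27me3 peak at all 8 stages, that of Olfr222 at each stage from D0 to D10, and that of Olfr94 at D4 and in iPSC. Vmn2r1 had H3K27me3 at 6 stages and not in iPSC, Olfr223 at D0 and D12, and Olfr318 at D0 and D6. Olfr951 (fold enrichment 9.19), Olfr1166 (7.96) and Olfr982 (7.41) had it in iPSC alone.

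H3K4me3, the promoter mark, was nearly absent from receptor genes until D8. It was listed for 7 genes at D0 (0.479%), against 67.7% of all genes, then for 8, 8, 9 and 9 genes from D2 to D8 (all genes 70.1, 70.0, 69.9 and 70.6%), 13 at D10 (71.7%), 25 at D12 (71.1%) and 47 in iPSC (3.22%, all genes 72.8%). It was present in iPSC and not D0 for 41 genes (2.81%, all genes 6.76%) and in D0 and not iPSC for 1, Olfr1033 (0.0684%, all genes 1.64%). At D0 0.479% of receptor genes and 67.7% of all genes had a peak to lose, so the shares are not loss rates. The share of H3K4me3 peaks in receptor windows was 0.0422% at D0, 0.0989% at D12 and 0.142% in iPSC. Its correlation with day from D0 to D12 had a Pearson r of 0.77 (exact permutation p = 0.00198, adjusted p = 0.00992) and a Spearman rho of 0.93 (adjusted p = 0.0337). Without D0 and D12 r was 0.89 (exact p = 0.0333). With lists cut to equal length the adjusted p was 0.0556.

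Many of the early H3K4me3 receptor peaks also lay in the windows of other genes. At D0 this held for 5 of 8 peaks, with another protein-coding gene in reach, compared with 8 of 50 in iPSC. To which gene such a peak belongs was not tested. Vmn2r29 (beside Clcn4 and Zfp772), Olfr94 (Ubd) and Olfr986 (Zfp202) had H3K4me3 at all 8 stages. At Olfr94 the summit lay inside the receptor gene at all 8 stages. The annotated promoter of Vmn2r29 lay under an H3K4me3 peak at each stage from D0 to D12. Olfr288 was also listed at all 8, with no other protein-coding gene in reach but a noncoding gene, Gm33909, annotated there, and its fold enrichments were 9.87, 11.5, 12.6, 13.0, 14.1, 11.0 and 10.3 in the lists from D0 to D12 and 8.94 in iPSC. Olfr142 (fold enrichment 13.0), Olfr461 (12.8) and Olfr773 (12.1) had H3K4me3 in iPSC, Olfr461 also at D12, and none at D0. Of the 1267 receptor promoters, 4 lay under an H3K4me3 peak at any stage, so few of these peaks lay over an annotated start.

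H3K27ac had the largest net change in genes between D0 and iPSC with 5 kb windows, 56, followed by H3K4me3 with 40; with 10 kb windows these were 92 and 94. It was listed for 18 receptor genes at D0 (1.23%, all genes 67.2%) and 74 in iPSC (5.07%, all genes 45.8%), so the receptor count was higher where the count of all genes was lower. The counts between were 14, 11, 21, 14, 20 and 57 genes from D2 to D12, against 61.5, 56.3, 58.5, 54.6, 60.8 and 66.2% of all genes, with the step at D12. A peak was present in iPSC and not D0 for 68 genes (4.65%, all genes 3.86%) and in D0 and not iPSC for 12 (0.821%, all genes 25.3%). Both are shares of all genes in a set, and 67.2% of all genes but 1.23% of receptor genes had a peak at D0. They are therefore not read as a higher gain or a lower loss in receptor genes. From D12 to iPSC 20 of 57 genes kept it, 37 lost it and 54 gained it. The whole H3K27ac list held 34185 peaks at D12 and 20479 in iPSC. The same turnover over all genes was not counted, so this is not read as particular to receptor genes. Of the 140 H3K27ac regions, 30 were listed at D12 alone and 59 in iPSC alone. The share of H3K27ac peaks was 0.0556% at D0, 0.170% at D12 and 0.376% in iPSC. Against day the Pearson r was 0.75 (exact permutation p = 0.0111, adjusted p = 0.0278) and Spearman's rho 0.86 (adjusted p = 0.0595). Without D0 and D12 r was 0.67 (exact p = 0.233).

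Among single genes, Vmn2r29, Vmn1r4 (beside the nucleotidase gene Nt5c3), Olfr986 and Vmn2r1 had H3K27ac at all 8 stages. Olfr288 had it at D0, D2, D6 and D8, Olfr1423 at D0, D6 and D12 and Olfr94 at D0, D4, D10 and D12, and none of them in iPSC. Vmn2r24 (fold enrichment 8.19), Olfr147 (7.40) and Olfr1065 (7.36) had it in iPSC alone. By family, 20 of 123 Vmn2r genes had H3K27ac in iPSC (16.3%) and 3 at D0 (2.44%). Of 1109 Olfr genes these were 49 (4.42%) and 14 (1.26%), and of 229 Vmn1r genes 5 (2.18%) and 1 (0.437%). Over all genes the shares were 45.8% in iPSC and 67.2% at D0. Of the 20 Vmn2r genes, 6 lay in 1 chr6 cluster of 9. Vmn2r windows are larger, and the part of length was not tested.

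H3K18la had the fewest receptor peaks over all stages. It was listed for 10 genes at D0 (0.684%, all genes 49.3%), 5, 10, 12, 10, 7 and 9 from D2 to D12 (all genes 32.6, 47.1, 56.6, 49.8, 33.9 and 37.4%) and 30 in iPSC (2.05%, all genes 45.0%). It was present in iPSC and not D0 for 23 genes (1.57%, all genes 10.6%) and in D0 and not iPSC for 3 (0.205%, all genes 14.8%), which were Olfr288, Olfr1055 and Olfr1344. As 0.684% of receptor genes and 49.3% of all genes had a peak to lose at D0, these are not loss rates. Peak names in the D2 list end in a replicate number, and that list may come from 1 library. Vmn2r29 and Olfr986 had H3K18la at all 8 stages and Vmn1r4 and Vmn2r1 at 7, while Olfr95, Olfr54 and Olfr1358 had it in iPSC alone. The share against day had a Pearson r of 0.74 (exact permutation p = 0.0448, adjusted p = 0.0561).

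H3K9me3 was listed at some stage at many of the loci where H3K4me3 appeared late. Merging the peaks of all marks gave 773 loci, 673 of them with 1 mark and 2 with all 5, beside Vmn2r29 and beside Olfr478. Of 44 loci with H3K4me3 in iPSC and not D0, 30 had H3K9me3 at some stage, 17 of them at D0 and 18 in iPSC. For loci with H3K27ac, H3K18la or H3K27me3 in iPSC and not D0, these were 34 of 73, 12 of 23 and 15 of 39. H3K9me3 peaks alone merged into 574 regions, so the mark is common among the 773 loci. Its share over all loci was not counted, and the 30 of 44 is not read as an excess. In iPSC, 19 of 50 receptor H3K4me3 peaks overlapped an H3K9me3 peak (38.0%, exact interval 24.7 to 52.8%), against 10.7% of the other H3K4me3 peaks of that list. For H3K27ac in iPSC the overlap with H3K9me3 was 19 of 77 (24.7%, interval 15.6 to 35.8%) against 13.0%. At D0 it was 2 of 8 H3K4me3 peaks, with an interval of 3.19 to 65.1%, against 1.30% of the other H3K4me3 peaks. From D2 to D12 the receptor share was also above that of the other peaks at each stage. It ran from 20.0% at D6 (2 of 10, others 0.827%) to 35.7% at D10 (5 of 14, others 1.89%). From D0 to D8 the overlapping peaks numbered 2 at each stage. The 2 loci of Vmn2r29, also in the windows of Clcn4 and Zfp772, held both marks at each of these stages. The early overlap thus rests on the same 2 loci around 1 gene and is not read as a repeated result. At D12 the overlap was 7 of 26 (26.9%, others 3.81%), so the higher share was not confined to iPSC.

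The Olfr478 locus (chr7:108026147-108028419) had H3K9me3 at all stages, with fold enrichments of 3.94, 3.82, 4.43, 3.96, 4.85, 4.16 and 3.94 from D0 to D12 and 5.85 in iPSC. H3K4me3 joined it at D10 (5.35), D12 (9.25) and iPSC (7.05), H3K27ac at D12 (6.71) and iPSC (6.63), H3K27me3 at D12 alone (4.53) and H3K18la in iPSC (5.34). The Olfr631 locus in the class I cluster (chr7:103921407-103922561) likewise had H3K9me3 throughout, from 5.13 at D10 to 9.89 in iPSC, and H3K4me3 of 3.49 at D10, 8.16 at D12 and 9.81 in iPSC. At Olfr54 and Vmn2r58, H3K9me3 was listed at all 8 stages and H3K4me3, H3K27ac and H3K18la in iPSC alone. Olfr951 had the other order: H3K9me3 was listed at D0, D2, D4, D6, D8 and D12 and not in iPSC, where H3K27me3 (9.19), H3K4me3 (8.12) and H3K18la (4.65) were listed. Vmn2r1 and Vmn2r2 shared a locus (chr3:64171127-64172802) with H3K9me3 and H3K27ac at all 8 stages, H3K18la at 7, H3K27me3 at 6 and no H3K4me3. Fold enrichments are the authors' values within each list: they served to rank the peaks named here, and a difference between lists is not read as a change.

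**Figure D4:**
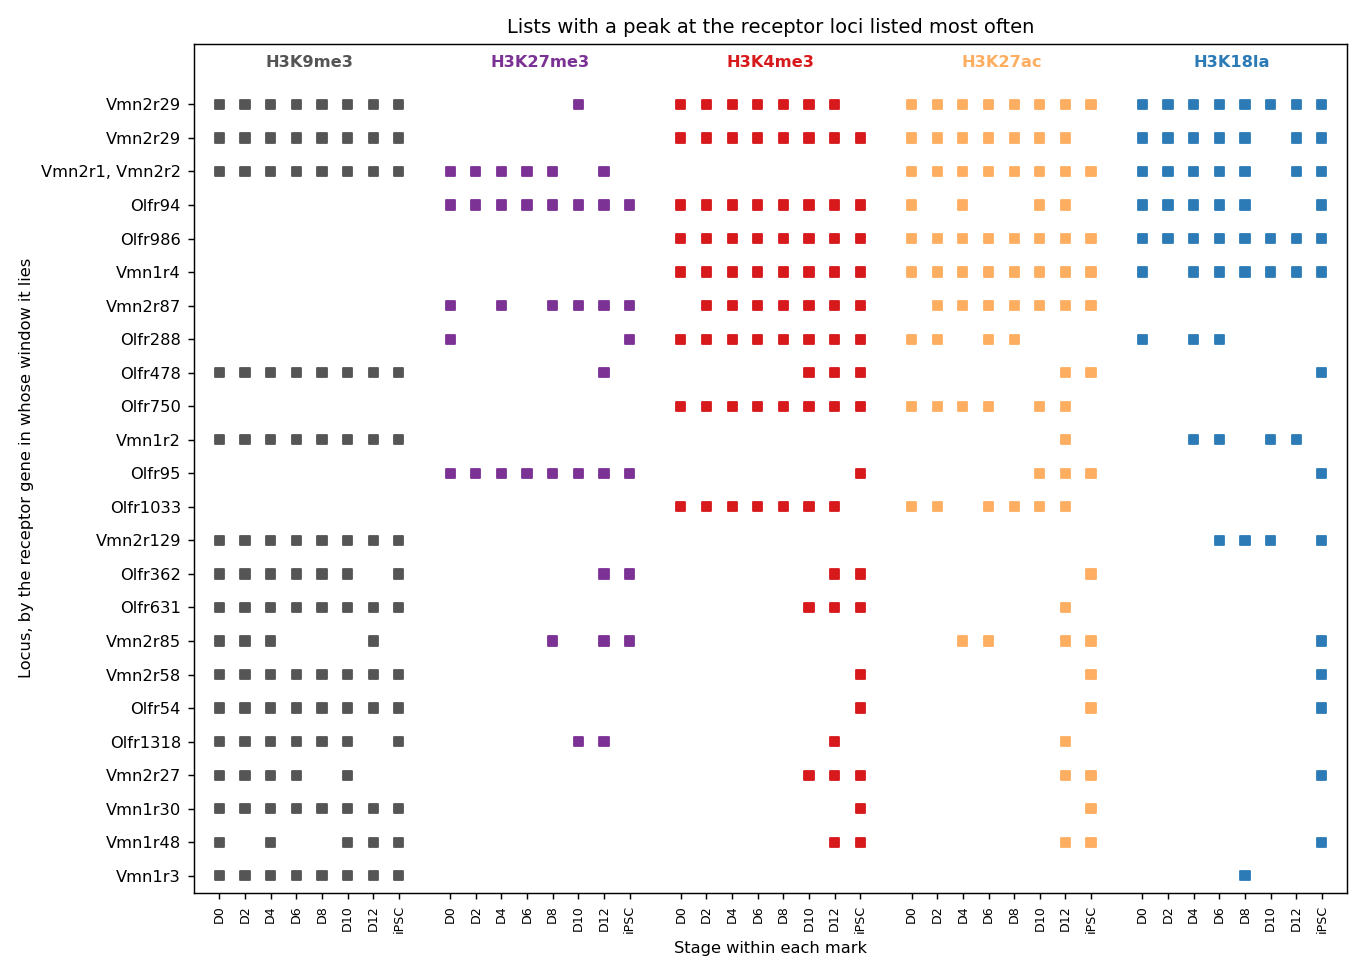
Lists with a peak at the 24 receptor loci listed most often (chromosome 18 left out), with 1 column per stage within each mark and a square where a peak was listed. Several upper loci carry H3K4me3 from D0 or D2 on, while Olfr478, Olfr631, Vmn2r58, Olfr54 and Vmn1r30 carry H3K9me3 at all 8 stages and H3K4me3 from D10 or later.

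The receptor genes formed 51 clusters of at least 2 genes with gaps of at most 1 Mb, which held 1444 genes, and 17 lone genes. H3K9me3 was found in 41 clusters, H3K27me3 in 36, H3K27ac in 34, H3K4me3 in 32 and H3K18la in 20. For comparison with the counts below, 29.5% of all protein-coding genes had H3K9me3 at any stage. H3K27me3 was listed for 54.1% of them, H3K27ac for 78.3% and H3K4me3 for 77.1%. The largest cluster, 222 Olfr genes on chr2:85330967-90401674, had H3K9me3 on 43 genes at any stage (19.4%), 20 at D0 and 13 in iPSC, and H3K27me3 on 2. It had the most H3K27ac genes, 16, of which 1 was listed at D0, 10 at D12 and 9 in iPSC. The mixed cluster of 8 Olfr, 35 Vmn1r and 29 Vmn2r genes at chr7:5146490-13220289 had H3K9me3 on 37 of 72 genes (51.4%), 21 at D0 and 10 in iPSC. The class I Olfr cluster, 126 genes at chr7:102476773-105369317, had H3K9me3 on 31 genes. It had H3K27me3 on 9, none at D0, D2 or D4, 5 at D10, 6 at D12 and 4 in iPSC.

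The highest shares of genes with H3K27me3 at any stage were in clusters of few genes. Over all protein-coding genes this share was 54.1%. The 55.6% of the chr15 cluster below is near it, and the 45.8% of the chr11 cluster of 24 genes is under it. The chr4 cluster of 6 Olfr genes at chr4:43695000-43855463 had it on 5 (83.3%), 2 at D0 and 1 in iPSC. The chr1 cluster of 8 Olfr genes had it on 6, of which 4 were listed at D0 and 0 in iPSC, a chr11 cluster of 3 on 2 (66.7%) and a chr15 cluster of 9 on 5 (55.6%). By number of genes the chr11 cluster of 24 Olfr genes at chr11:58454915-59614225, which holds Olfr222, came first with 11 (45.8%), 5 at D0 and 3 in iPSC. The chr13, chr17 (46 Olfr genes) and mixed chr7 clusters and the chr9 cluster of 95 genes had 6 genes each, as many as the chr1 cluster. The 86 Vmn1r genes at chr7:20101158-24055691 had H3K9me3 on 14 genes and none of the other marks. In the chr6 cluster of 9 Vmn2r genes at chr6:123308333-124231784, H3K27ac was listed for 6 genes in iPSC and 0 at D0 (all genes 45.8 and 67.2%). The chr9 cluster of 95 genes followed with 13 H3K27ac genes at any stage, 4 at D0 and 8 in iPSC, and the chr17 cluster of 46 genes had 4 H3K4me3 genes.

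**Figure D5:**
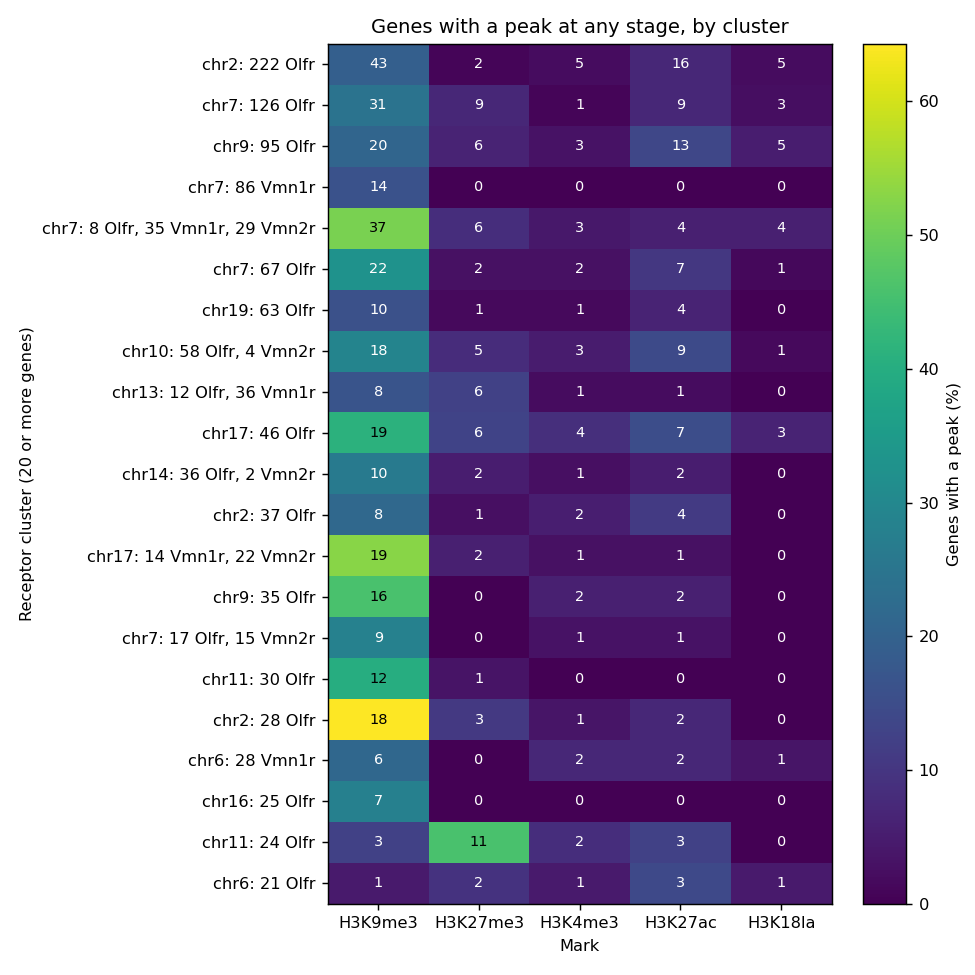
Receptor genes with a peak at any stage in the 21 clusters of 20 or more genes, by mark; the number in a cell is the count of genes and the colour its percentage of the cluster. The H3K9me3 column is the fullest in most clusters, with 2 exceptions: the chr11 cluster of 24 Olfr genes has 11 H3K27me3 and 3 H3K9me3 genes, and the chr6 cluster of 21 has 3 H3K27ac and 1 H3K9me3 gene.

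Among genes that serve the receptors, the share with H3K4me3 at D0 was near that of all protein-coding genes (67.7% at D0, 72.8% in iPSC) for the signalling lists. Of 18 genes of olfactory signal transduction and receptor traffic (such as Gnal, Adcy3 and Rtp1), 11 had H3K4me3 at D0 and 16 in iPSC, and 12 and 9 had H3K27me3 (all genes 33.0 and 32.4%). Of 23 regulators of receptor choice and olfactory neurons (such as Lhx2, Ldb1 and Ebf1), 23 had H3K4me3 at D0 and 22 in iPSC, 20 and 10 had H3K27ac (all genes 67.2 and 45.8%), and 12 and 14 had H3K27me3. Of 7 vomeronasal signalling genes (such as Trpc2 and Gnao1), 5 had H3K4me3 at D0 and 7 in iPSC. Among 603 receptor pseudogenes, H3K9me3 was listed for 79 at D0 (13.1%) and 97 in iPSC (16.1%), H3K4me3 for 10 and 43, H3K27ac for 13 and 48, H3K27me3 for 13 and 24 and H3K18la for 9 and 30. With the main settings the H3K9me3 count was thus higher in iPSC than at D0 in the pseudogenes. It was lower (161 at D0, 144 in iPSC) in the protein-coding receptor genes. The direction in the protein-coding genes depended on the setting. Their counts at D0 and iPSC were 109 and 128 with a −log10 q of at least 5, and 312 and 329 with 10 kb windows. The pseudogenes were not recounted under these settings, so a difference in direction is not read from these counts.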

How the data were processed

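Histone marks were profiled by CUT&Tag in 80 libraries, assigned to a mark and a stage from their titles. The submitters' processing notes name mm10 as the build and, as tools, MACS2 2.1.2, Bowtie2 2.2.5, deepTools 3.4.3 and fastp 0.20.1. The authors deposited 1 peak list per mark and stage. The deposited columns hold, for every peak, a fold enrichment (a ratio), a −log10 p-value, a −log10 q-value and an integer score. Pooling of libraries and use of a control are not given in the sources used.

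The 3092 of 713652 peaks off chromosomes 1 to 19, X and Y were left out. Genes were those of the RefSeq table of GRCm38.p6. Of 1465 receptor genes, 4 lie at unlocalised positions and were not used. Peaks were overlapped with gene windows (Python 3.11.15, pandas and numpy), and genes, regions, clusters and shares were counted. Pileups were worked out from the 2 deposited values, fold enrichment and −log10 p, with the caller's Poisson formula. Shares against day were tested over 7 lists by two-sided exact permutation of Pearson and Spearman coefficients (smallest p 0.000397), adjusted by Benjamini-Hochberg over 5 marks. The overlap step, the permutation test and the solving step were tested on simulated data.

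Named genes were, per mark, the 4 with a peak at the most stages and the 3 of highest fold enrichment at D0 without an iPSC peak and in iPSC without a D0 peak. Named clusters were, per mark, the 3 with the most member genes that had a peak at any stage. Named peaks were, per mark, the 3 of highest fold enrichment away from other genes. Other genes and clusters were named after their values were seen. The members and lists were chosen with earlier results of these data known. Alternatives were a stricter −log10 q of 5, lists of equal length, windows of 0 and 10 kb, 50% of the peak inside a window, and leaving out peaks near other genes.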

Additional observations from a re-analysis of the deposited data

How the results depend on the processing

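No paired analysis was possible because each mark and stage has 1 list and the lists carry no replicate. Stages could not be left out of the net change, which uses 1 list each for D0 and iPSC. The net change of H3K9me3 (-17) became 19 with a −log10 q of at least 5 and 17 with 10 kb windows, and -9 with lists of equal length. That of H3K18la (20) became 12, 37 and 6 under these. With 10 kb windows H3K27me3 (20) became 33, H3K4me3 (40) 94 and H3K27ac (56) 92; on gene bodies alone these were 4, 14 and 19, and H3K18la 7. The cause was not tested, beyond windows of 10 kb and bodies holding more or fewer genes by construction.

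The correlation with day lost its call at equal length for H3K27me3 (r = 0.79), H3K4me3 (0.72) and H3K27ac (0.82), each with an adjusted exact p of 0.0556, and without peaks near other genes for H3K27me3 (0.84, p = 0.0516) and H3K27ac (0.71, p = 0.0582). Leaving out 1 list in turn, an alternative chosen after seeing the data, gave r from 0.68 to 0.88 for H3K27me3 (adjusted exact p 0.0521 to 0.245), 0.75 to 0.85 for H3K4me3 (0.0139 to 0.135), 0.73 to 0.88 for H3K27ac (0.0174 to 0.194), 0.54 to 0.80 for H3K18la and -0.72 to -0.42 for H3K9me3. With 6 or 7 lists a single list decides these calls. The other 63 of 95 recomputed values kept their direction and side of the threshold or stayed within 1.5 times the count. Thin lists limit the counts: H3K18la at D2 had 5 receptor peaks and H3K4me3 at D0 had 8.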

Other observations

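The trace amine receptor genes (Taar), the other odorant receptor family of the main olfactory epithelium, stand in a cluster of 15 genes at chr10:23920406-24109534. H3K27ac was listed in their windows for 0 genes at D0, D2, D4 and D6, for 1 at D8 (Taar9), 5 at D10 (Taar7d, Taar7e, Taar8b, Taar8c and Taar9), 7 at D12 (Taar5, Taar7b, Taar7d, Taar7e, Taar8a, Taar8b and Taar9) and 0 in iPSC. The 6 peaks of D10 and 9 of D12 had fold enrichments of 3.01 to 6.16. H3K4me3 and H3K27me3 were listed for none of the 15 genes at D0, D12 or iPSC. H3K18la was listed at Taar7d at D12 (fold enrichment 6.00) and H3K9me3 at Taar1 in iPSC (6.61). For comparison, 60.8% of all genes had an H3K27ac peak at D10, 66.2% at D12 and 45.8% in iPSC. The Taar genes were chosen for mention after their values were seen, and no test between stages was possible.

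Of the other chemoreceptor families, 2 of 38 taste receptor genes had H3K27ac at D0 and D12 and 1 in iPSC, and the 7 formyl peptide receptor genes had none at these stages. Of 21 Ms4a genes, 1 had H3K27ac at D0, 5 at D12 and 6 in iPSC, and 1, 3 and 4 had H3K4me3.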
